A study of Mus musculus with 30 samples.

Results

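The genes of oxidative phosphorylation were followed in RNA-seq libraries of adipose-derived stem cells from 30 mice. The members were the protein-coding genes whose symbols name a subunit of respiratory complexes I to IV or of ATP synthase (complex V), and they numbered 89 of the 38561 genes in the count table. Of these, 76 lie in nuclear DNA (36 for complex I, 4 for complex II, 9 for complex III, 10 for complex IV and 17 for complex V) and 13 in mitochondrial DNA (7, 0, 1, 3 and 2). Members were picked by symbol and not by any measured value. After a filter on low counts 84 members were tested: all 76 nuclear genes and 8 mitochondrial ones.

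All mice were C57BL6/J males of a diet-induced obesity colony, and inguinal fat was the source of the cells, which were Sca-1+, CD34+, CD31-, CD45- and Ter119- and had been grown to passage 2. Control chow was fed to the lean groups and, from weaning on, a diet with fat as 60% of energy to the obese groups. There were 8 young lean and 8 young obese mice, killed at 20 weeks, and 8 aged lean and 6 aged obese mice, killed at 52 weeks. Each library is 1 mouse, so the p-values measure the spread between mice. The labels gave 12 mice bought per group and 8 aged obese mice alive at the end, so the aged obese group holds survivors. Aged obese mice had also been fed the diet for longer, and the 2 influences cannot be told apart.

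The respiratory chain passes electrons from NADH and succinate to oxygen. Complexes I, III and IV use the energy released to pump protons out of the mitochondrial matrix, and complex V lets the protons back in to make ATP. Complex II is built from nuclear genes alone, while the other complexes combine nuclear subunits, imported from the cytosol, with subunits made inside the mitochondrion from its own DNA. Adipose progenitors carry this machinery at a modest level and build up mitochondria when they turn into fat cells.

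Gene totals ran from 30597765 to 47970233 counts per library. Markers of stromal cells were high in all libraries, with a summed level between 16566 and 71260 CPM (counts scaled to a common library size). The summed leukocyte markers lay between 3.07 and 9.21 CPM, the endothelial markers between 1.28 and 20.9 CPM and the red blood cell markers between 0.025 and 0.336 CPM, and Hba-a1, Hbb-bs, Hbb-bt, Lep, Myh4 and Myf5 had no count in any library. The other sums were 115 to 635 CPM for mural cells, 10.9 to 62.9 CPM for fat cells and 38.5 to 294 CPM for skeletal muscle, whose markers other than Acta1 had few or no counts.

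**Figure D1:**
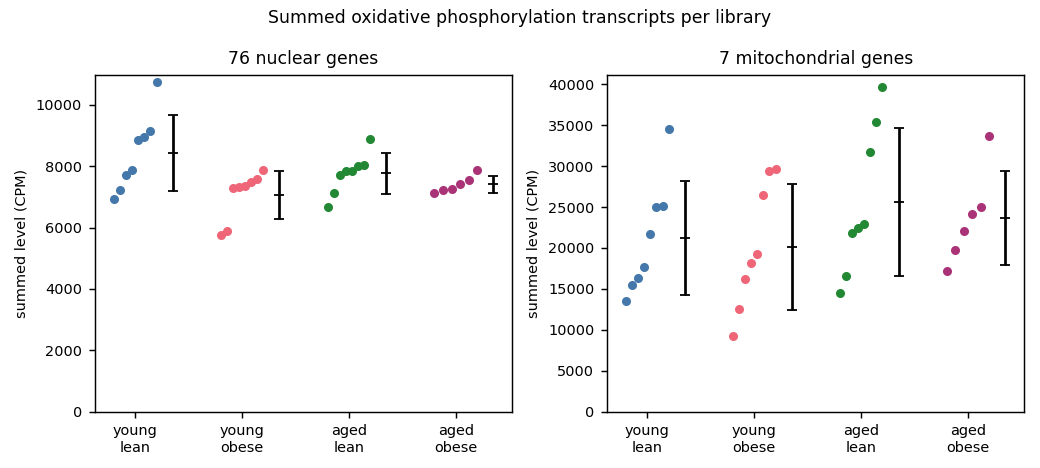
Summed CPM of the 76 nuclear genes (left) and of the 7 mitochondrial genes with most of the counts (right) in each of the 30 libraries, by group, with the group mean and SD. The nuclear sum lies between 5764 CPM in young obese mouse 1 and 10739 CPM in young lean mouse 26, while the mitochondrial sums of the 4 groups span overlapping ranges.

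The mean sum of the nuclear members was lower in young obese than in young lean cells, with overlapping ranges. The mitochondrial sum averaged 20121 ± 7660 CPM in young obese and 21177 ± 6954 CPM in young lean mice (SD, n = 8 each) and also overlapped. Whether the 2 genomes differed in their change was not tested. Per library, the 76 nuclear genes summed to 6929 CPM at the lowest, 8363 at the median and 10739 at the highest in young lean mice, a mean of 8433 ± 1245 (SD, n = 8). In young obese mice the lowest, median and highest sums were 5764, 7336 and 7891 CPM, a mean of 7071 ± 788 (SD, n = 8). The ranges overlapped: young lean mouse 26 was the highest of all 30 libraries, and young obese mice 1 and 2, at 5764 and 5901 CPM, were the lowest. The other 6 young obese mice lay between 7300 and 7891 CPM, inside the young lean range. A lower level in a bulk library can come from fewer cells that make an RNA or from less of it per cell, and these cannot be told apart here.

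The means of the aged groups lay between those of the young ones with TMM scaling, but on plain CPM the aged obese mean, 7012, was below the young obese mean, 7151. Aged lean libraries ran from 6667 over a median of 7834 to 8886 CPM, a mean of 7766 ± 657 (SD, n = 8). Aged obese libraries ran from 7120 over 7353 to 7879 CPM, a mean of 7416 ± 274 (SD, n = 6). The whole aged obese range lay within the aged lean range, and the spread among aged obese mice was the narrowest of the 4 groups. By complex, the nuclear genes of complex I averaged 2284 CPM in young lean, 1760 in young obese, 2018 in aged lean and 1898 in aged obese mice, and those of complex IV, in the same order, 1520, 1171, 1365 and 1288 CPM. Complex II, with means of 466, 436, 452 and 438 CPM, differed least between the groups.

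The 7 well-counted mitochondrial genes together gave more counts than all 76 nuclear ones. Their sum ran from 13463 over 19705 to 34566 CPM in young lean mice and from 9292 over 18713 to 29616 CPM in young obese mice. In aged lean mice it ran from 14451 over 22698 to 39673 CPM, and in aged obese mice from 17204 over 23148 to 33687 CPM. All 4 ranges overlapped, and within each group the highest library was well above the lowest. For each CPM of these 7 genes there were 0.429 ± 0.126 nuclear CPM in young lean (n = 8) and 0.394 ± 0.134 in young obese mice (n = 8). In aged lean mice (n = 8) there were 0.343 ± 0.141 and in aged obese mice (n = 6) 0.327 ± 0.0706, all as mean ± SD. The largest difference between these means was smaller than the SD of the young lean group. The sum of the 7 leaves out the poorly counted mitochondrial genes. It includes mt-Co1 and mt-Nd4, whose values are uncertain for the reason given below, so it does not stand for all mitochondrial RNA.

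Of the 13 mitochondrial genes, 5 were close to absent from the counts although mitochondrial RNAs are abundant in most tissues. Over all 30 libraries together mt-Co2 had 29 counts, mt-Co3 38, mt-Atp6 33, mt-Atp8 7 and mt-Nd4l 4. mt-Nd3 had 287, between 0 and 29 per library. By contrast mt-Co1 had 9951071 counts, mt-Cytb 4048568, mt-Nd5 3353701, mt-Nd1 2921279, mt-Nd2 2059050, mt-Nd4 1484245 and mt-Nd6 958906. Whether a gene was well or poorly counted went with its copies in nuclear DNA. In the GENCODE M21 transcripts (GRCm38), stretches of at least 60 bases shared with other genes covered 100% of mt-Co2, 99.9% of mt-Co3, 99.6% of mt-Atp6, 99% of mt-Nd4l and 98.3% of mt-Nd3, and the copies lie on chromosome 1. They covered 71.5% of mt-Co1, 63.6% of mt-Nd4, 20.4% of mt-Nd5 and 12.4% of mt-Nd2 and none of mt-Nd1, mt-Nd6 or mt-Cytb. mt-Atp8 shared no such stretch with these transcripts either and was still near 0. The search covered annotated transcripts only, so it cannot tell whether nuclear DNA holds a copy of mt-Atp8.

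The first 60 bases of mt-Co2 and mt-Nd3, which encode a catalytic subunit of complex IV and a membrane subunit of complex I, are shown beside their nuclear copies because reads from such a stretch have the same or nearly the same sequence at both places. In mt-Co2 (chrM:7013-7696, plus strand) and its copy Gm28661 (chr1:24614885-24615565, minus strand) the 60 bases are identical. mt-Nd3 (chrM:9459-9806, plus strand) and Gm28438 (chr1:24612775-24613119, minus strand) differ by T3C, counted from the first base of the transcript and in capitals below.
mt-Co2: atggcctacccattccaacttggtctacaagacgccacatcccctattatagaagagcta
Gm28661: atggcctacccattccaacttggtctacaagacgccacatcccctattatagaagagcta
mt-Nd3: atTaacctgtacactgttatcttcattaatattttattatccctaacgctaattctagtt
Gm28438: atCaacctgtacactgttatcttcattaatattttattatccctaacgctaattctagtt
Over their full aligned lengths, 681 of 681 bases are the same in Gm28661 and mt-Co2, and 344 of 345 in Gm28438 and mt-Nd3. How reads that fit several places were handled is not given in the sources used here. Values of mt-Co1 and mt-Nd4 are therefore uncertain, and those of mt-Co2, mt-Co3, mt-Atp6, mt-Atp8, mt-Nd4l and mt-Nd3 were not read as levels of these RNAs.

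**Figure D2:**
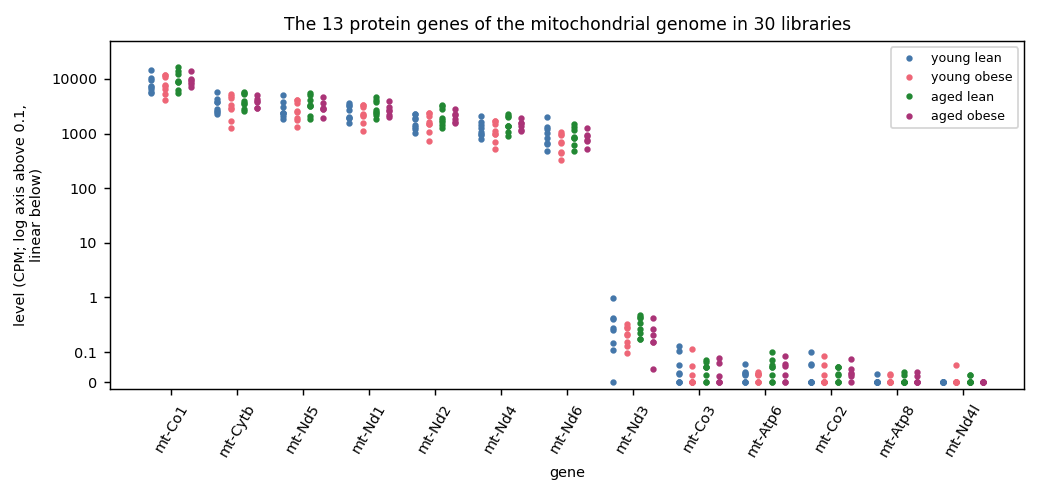
CPM of the 13 mitochondrial genes in the 30 libraries, by group, with each point 1 mouse (log axis, linear at its low end). Only the 7 well-counted genes are read as levels, with mt-Co1 and mt-Nd4 uncertain among them. The 4 groups overlap for each of these 7, and mt-Nd6 has its highest value, 2007 CPM, in young lean mouse 26.

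None of the 7 passed the test for obesity in young mice, where 8.8% of all 14438 tested genes did, and all 7 had negative log2 fold changes with a median of -0.08. mt-Co1, the core subunit of complex IV that reduces oxygen, ran from 5537 over 7246 to 14279 CPM in young lean and from 4061 over 7523 to 12047 CPM in young obese mice, a log2 fold change of -0.02 (adjusted p = 0.959). mt-Cytb, the cytochrome b of complex III, ran from 2268 over 3252 to 5868 and from 1242 over 3127 to 5197 CPM, a log2 fold change of -0.06. Both genes overlapped between the groups over most of their range. mt-Nd6, the one subunit gene on the light strand, ran from 480 over 913 to 2007 CPM and from 326 over 678 to 1075 CPM, with the most negative log2 fold change of the 7, -0.54 ± 0.28 (SE; adjusted p = 0.195). mt-Nd3 was tested on its few counts and gave -0.56 (adjusted p = 0.444). Of all 14438 tested genes 4093 had an unadjusted p under 0.05 by edgeR. Of the 7, 0 did, and the edgeR, DESeq2 and limma-voom fits each called 0 of them. The sign of their median was not stable: it was 0.08 without young lean mouse 7, 0.02 without young obese mouse 2, 0.12 without young obese 1 and 2, 0.10 with an offset for length and GC content and 0.29 by limma-voom.

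Of the 76 nuclear members, 43 fell in young obese against young lean cells and none rose (edgeR's quasi-likelihood test, Benjamini-Hochberg adjusted p under 0.05 over all tested genes). Over all tested genes 5.35% fell. The median log2 fold change was -0.37 for the nuclear members and -0.02 over all tested genes, and 71 of the 76 were negative. The fall touched complex I in 24 of 36 genes, complex IV in 8 of 10, complex V in 8 of 17, complex III in 3 of 9 and complex II in 0 of 4. The counts depended on single mice: with 1 lean mouse left out the 43 became 1 (mouse 26, with Ndufa1 alone called), 2 (mouse 7), 7 (mouse 27) or 24 (mouse 23), and with 1 obese mouse left out 7 (mouse 1), 11 (mouse 2) or 24 (mouse 21). It became 0 without young obese 1 and 2 together. The median lay between -0.40 and -0.28 in the fits that left out 1 mouse. All 43 genes had negative values in each of those 16 fits. They were picked as lower in these same libraries and the fits share most mice, so this is no independent support.

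**Figure D3:**
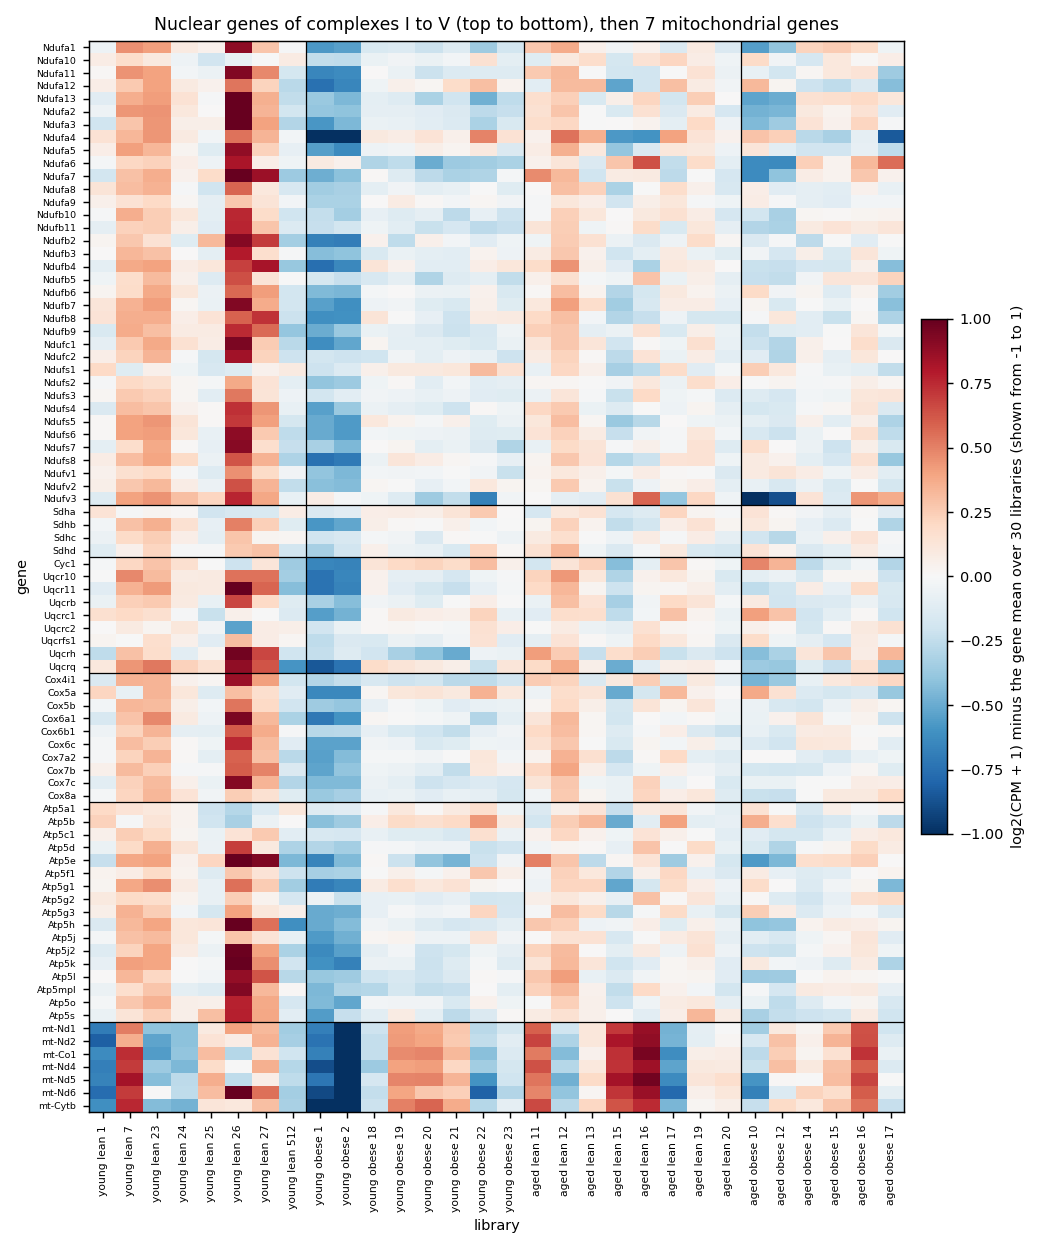
Level of each of the 76 nuclear genes (rows, by complex), then of the 7 well-counted mitochondrial genes, in each of the 30 libraries (columns, by group). Values are log2(CPM + 1) minus the gene's mean over the libraries, on a capped color scale. Counted apart from the plot, young obese mice 1 and 2 have 2 nuclear genes each above the gene's median, while young lean mouse 26 has 69 and young lean mouse 23 has 76.

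The shift ran through whole libraries rather than through single genes, as the plot of members by library shows. Of the 76 nuclear genes, 76 lay above the gene's own median in young lean mouse 23, 69 in young lean 26 and 75 in aged lean 12. Only 2 did so in young obese 1 and in young obese 2, 7 in aged lean 20 and 14 in young lean YL512. A lean library thus stood among the low ones in each age group. Ndufa6 and Ndufv3, an accessory subunit and a small subunit of the NADH-binding arm of complex I, did not follow the others in young obese 1 and 2: Ndufa6 had 54.6 and 52.8 CPM there against 35.9 to 42.8 CPM in the other 6 young obese mice, and Ndufv3 had 78.4 and 73.5 CPM against 46.1 to 72.4 CPM. Ndufa4, first described in complex I and also found in complex IV, was at 37.4 and 38.9 CPM in these mice against 85.8 to 117 CPM in the other 6. Ndufa6 and Ndufv3 were chosen for naming after their values were seen.

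In complex I, 20 of 29 accessory genes and 4 of 7 nuclear core genes fell, with median log2 fold changes of -0.42 and -0.26. Ndufa1, a small membrane subunit needed for assembly, ran from 32.1 over 38.0 to 62.7 CPM in young lean and from 22.1 over 28.9 to 30.4 CPM in young obese mice, so that each obese library lay below each lean one. Its log2 fold change was -0.59 ± 0.13 (SE; adjusted p = 0.0149). It was the one nuclear member whose groups did not overlap, where 0.741% of all tested genes were lower without overlap. It passed the test in 16 of 16 fits that left out 1 mouse (largest adjusted p 0.0437) and missed it without young obese 1 and 2 together, at -0.50 (adjusted p = 0.062).

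Ndufa13, also known as GRIM-19, a membrane-arm subunit, ran from 68.6 over 97.5 to 187 CPM in young lean and from 58.2 over 66.9 to 76.3 CPM in young obese mice. It fell by 0.62 ± 0.15 on the log2 scale (SE; adjusted p = 0.020). Ndufa2, an accessory subunit of the matrix arm, ran from 83.3 over 111 to 217 and from 71.5 over 83.3 to 89.2 CPM and fell by 0.56 ± 0.14 (SE; adjusted p = 0.0211). For both genes the ranges overlapped at the lower end of the lean group and the highest value was that of young lean mouse 26. Ndufb2, which had the lowest level per transcript length of the complex I genes at 1.24 CPM per kilobase, ran from 2.08 over 3.51 to 6.37 and from 1.41 over 2.70 to 3.03 CPM and fell by 0.64 ± 0.19 (adjusted p = 0.0372).

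Ndufs1, the largest core subunit, which carries iron-sulfur clusters, behaved otherwise: it ran from 44.6 over 49.9 to 57.4 CPM in young lean and from 43.1 over 53.4 to 62.4 CPM in young obese mice, a log2 fold change of 0.07 ± 0.09 (SE; adjusted p = 0.616). Ndufa4, the highest of the complex I genes per length at 188 CPM per kilobase, ran from 81.4 over 98.2 to 121 and from 37.4 over 87.8 to 117 CPM (log2 fold change -0.30, adjusted p = 0.337). The 2 low libraries named above set its lower range.

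In complex II, which takes electrons from succinate and is also an enzyme of the citric acid cycle, 0 of 4 genes passed the test by edgeR. An unadjusted p under 0.05 was found for 2 of them, beside 4093 of all 14438 tested genes. Sdhb, the iron-sulfur subunit, ran from 74.0 over 92.4 to 114 CPM in young lean and from 53.5 over 80.2 to 83.9 CPM in young obese mice (log2 fold change -0.29, adjusted p = 0.0685). Sdha, the flavin-bearing subunit that binds succinate, ran from 140 over 160 to 176 and from 145 over 167 to 192 CPM (0.08, adjusted p = 0.496). The membrane anchors Sdhc and Sdhd had log2 fold changes of -0.16 and -0.13 and did not pass. The groups overlapped for all 4.

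In complex III the 3 genes that fell were small accessory subunits. Uqcr11 ran from 48.0 over 76.3 to 135 CPM in young lean and from 38.6 over 58.8 to 67.1 CPM in young obese mice and fell by 0.55 ± 0.15 (SE; adjusted p = 0.0273). Uqcr10 ran from 45.1 over 66.2 to 83.9 and from 34.0 over 53.7 to 58.9 CPM (log2 fold change -0.45, adjusted p = 0.0311), and Uqcrh, the hinge protein, from 110 over 141 to 257 and from 92.4 over 113 to 126 CPM (-0.49, adjusted p = 0.0432). Lean and obese ranges overlapped in their lower part for all 3. The catalytic subunits gave smaller values: Cyc1, cytochrome c1, ran from 70.3 over 93.9 to 110 and from 56.3 over 101 to 112 CPM (-0.02, adjusted p = 0.941), and Uqcrfs1, the Rieske iron-sulfur protein, had -0.16 (adjusted p = 0.129).

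In complex IV 8 of the 10 nuclear genes fell. Cox4i1, a subunit at which ATP regulates the enzyme, ran from 238 over 310 to 494 CPM in young lean and from 221 over 232 to 242 CPM in young obese mice, so the obese libraries lay close together at the bottom of the lean range. It fell by 0.48 ± 0.12 on the log2 scale (SE; adjusted p = 0.0221). Cox6b1, which lies where the enzyme dimerizes, ran from 123 over 141 to 201 and from 108 over 116 to 128 CPM (log2 fold change -0.35, adjusted p = 0.0245), and Cox7c from 69.2 over 93.9 to 162 and from 62.2 over 75.5 to 81.6 CPM (-0.43, adjusted p = 0.0252). Cox6a1, the highest of complex IV per length at 378 CPM per kilobase, had -0.45 (adjusted p = 0.0384). Cox5a, which ran from 37.6 over 45.6 to 52.4 and from 26.1 over 44.3 to 52.9 CPM, had -0.14 (adjusted p = 0.538).

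Complex V differed between its parts. All 4 genes grouped as other membrane parts fell (median -0.46), as did 2 of the 4 peripheral stalk genes, 1 of the 5 genes of the F1 head, 0 of the 3 genes of the c ring, and Atp5s, the coupling factor B. Atp5e, the smallest subunit of the F1 head, ran from 71.3 over 121 to 250 CPM in young lean and from 61.4 over 79.2 to 98.5 CPM in young obese mice and fell by 0.73 ± 0.19 (SE; adjusted p = 0.0245), the most negative value of all nuclear members. Atp5k ran from 47.6 over 63.5 to 112 and from 33.8 over 49.9 to 53.9 CPM (-0.53, adjusted p = 0.0228), and Atp5mpl from 40.6 over 47.3 to 85.2 and from 32.2 over 37.4 to 44.4 CPM (-0.45, adjusted p = 0.0245). Both belong to the membrane part, and for each the 2 ranges overlapped.

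Subunits alpha and beta of the catalytic head of ATP synthase did not show this. Atp5b, the subunit beta that makes ATP, was the highest nuclear member per length at 462 CPM per kilobase and ran from 696 over 871 to 1022 CPM in young lean and from 655 over 956 to 1183 CPM in young obese mice (log2 fold change 0.09, adjusted p = 0.686). Atp5a1, its partner subunit alpha, ran from 452 over 577 to 630 and from 503 over 550 to 617 CPM (0.01, adjusted p = 0.955). Atp5s, the lowest of complex V at 3.84 CPM per kilobase, ran from 5.32 over 6.74 to 10.7 and from 3.64 over 5.25 to 6.20 CPM (-0.46, adjusted p = 0.0281). Of the 76 nuclear members 5 had a positive log2 fold change: Atp5b, Sdha, Ndufs1, Uqcrc2 and Atp5a1, of which Uqcrc2 was named after its value was seen.

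**Figure D4:**
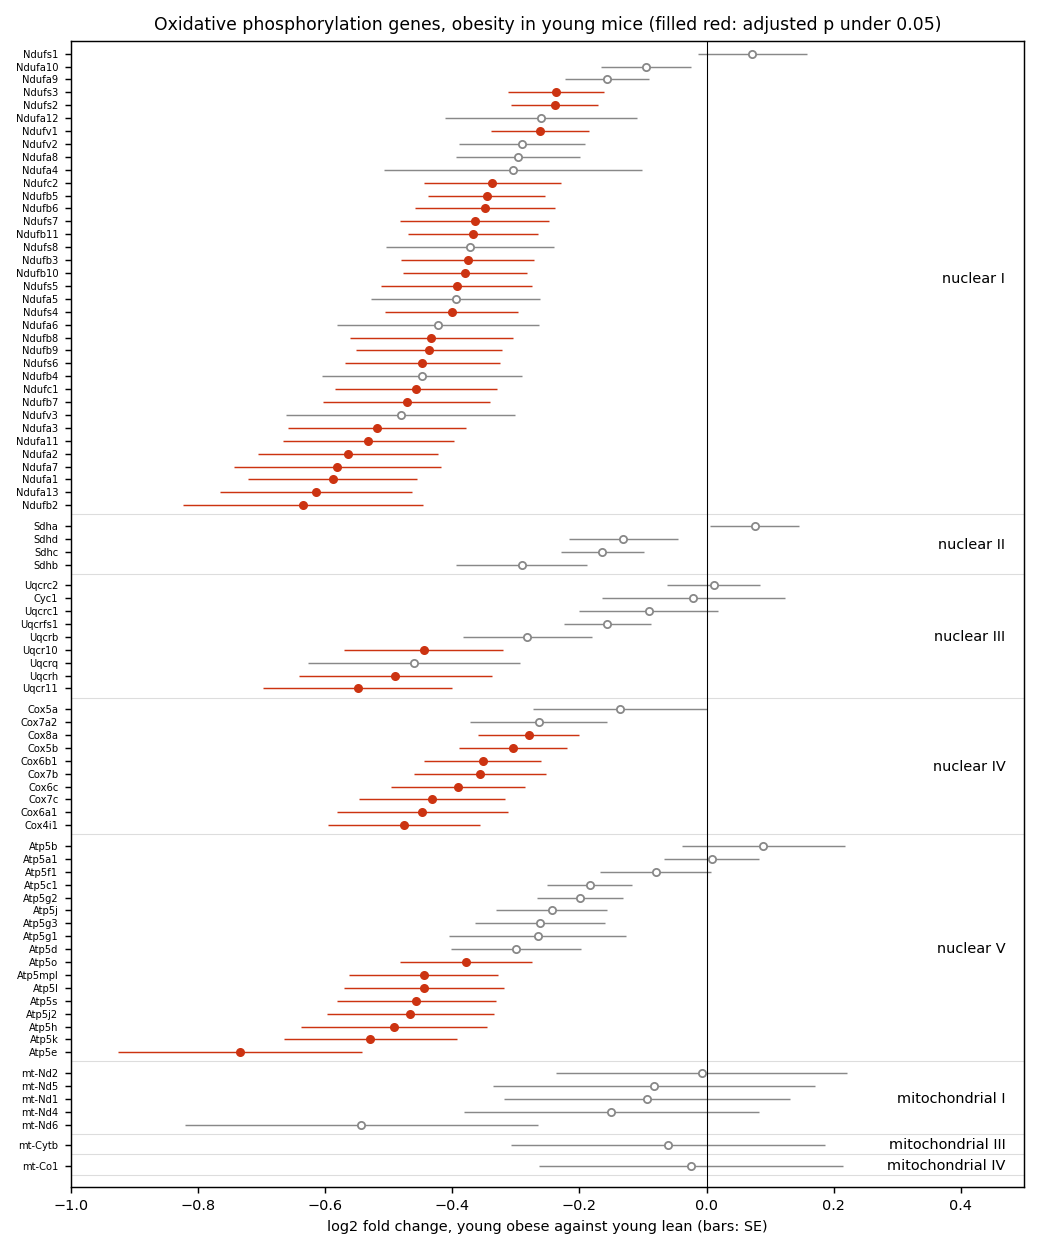
Log2 fold change, young obese against young lean, of each nuclear gene by complex and of the 7 well-counted mitochondrial genes. Filled points passed the test, and bars through the points give the SE. The nuclear values lie between -0.73 (Atp5e) and 0.09 (Atp5b), with 24 of 36 called in complex I and 0 of 4 in complex II.

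The values moved with transcript length. Nuclear members have short transcripts, with a median of 746 bases (GENCODE M21) against 2573 bases over all tested genes. Of the 38 members with the shorter transcripts 27 fell, with a median log2 fold change of -0.44, and of the 38 with the longer ones 16 fell, with a median of -0.28. All 38 shorter members had negative values, and the 5 members with positive values were all among the longer ones. The differences between complexes and between their parts given above are not corrected for length. The genes outside the group showed the same order: in the decile with the shortest transcripts the median was -0.31, with 235 of 1422 genes lower and 3 higher, and in the decile with the longest it was 0.23, with 7 lower and 164 higher. With an offset for length and GC content in the same fit, 1 nuclear member fell (Ndufs4, an accessory subunit of complex I) in place of 43, and the median of the nuclear members was -0.05.

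Length also set libraries apart. The slope of a library's log2 level against length, per doubling of length, was most negative in young lean mouse 26 at -0.217 and most positive in young obese 1 at 0.138 and young obese 2 at 0.128, which are also the libraries with the highest and lowest nuclear sums. In the other 6 young obese mice it lay between 0.0143 and 0.0347. The part of RNA quality or library preparation in this was not tested. Other short-transcript gene groups moved with the members: of 75 cytosolic ribosomal protein genes 57 fell and none rose (median -0.44), and with the offset 1 fell. Of the 10 markers of dividing cells none passed the test. Their sum ran from 341 to 724 CPM in young lean and from 206 to 1155 CPM in young obese mice. Young obese 1 and 2 had 218 and 206 CPM, against 688 to 1155 CPM in the other 6 young obese mice. The summed stromal markers were 71260 and 67361 CPM in these 2 mice, against 16566 to 48530 CPM in the other 6. Whether these differences bear on the nuclear members was not tested.

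**Figure D5:**
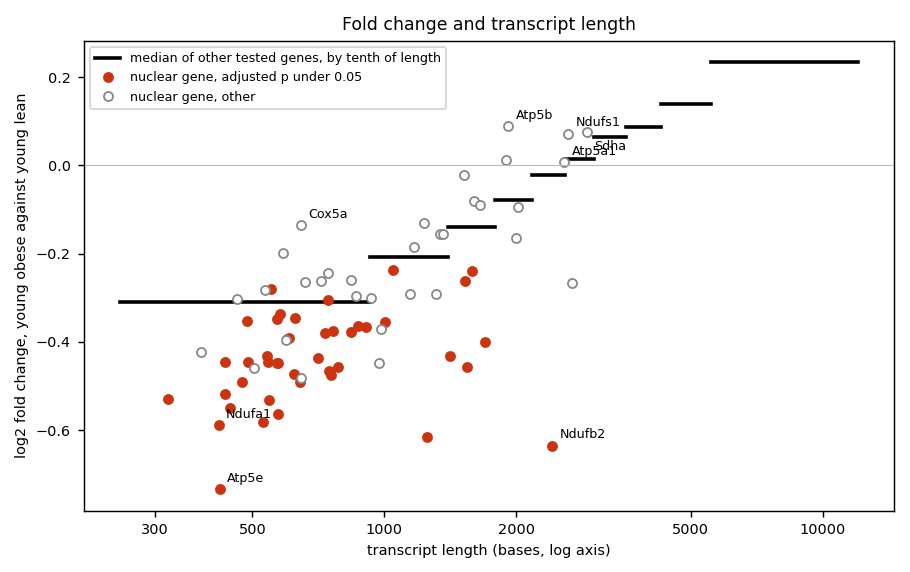
Log2 fold change, young obese against young lean, of each nuclear member against its transcript length in bases (log axis); black segments are the medians of the other tested genes in deciles of length. The black medians climb from -0.31 in the shortest decile to 0.23 in the longest, and 71 of the 76 members lie below 0.

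Nuclear genes of this system share binding sequences for a few transcription factors, among them NRF1, the ETS factor GABP and YY1, and these were looked for in RefSeq promoters (GRCm38.p6, 250 bases before to 50 bases after the start, both strands), where 63 of the 76 nuclear members matched with 68 promoters. The NRF1 motif, GCGCA and GCGC with any base between, stood in 26.5% of these and in 4.6% of all 32851 promoters. CCGGAAG, the ETS core, stood in 23.5% against 8.86%, and its longer form CCGGAAGT in 7.4% against 3.89%. AAGATGGCG, the YY1 motif, stood in 10.3% against 1.4%, and TCAAGGTCA, the ESRRA motif, in 2.9% against 0.42%. In 33 of the 68 promoters none was present, and 4 had both an ETS core and an NRF1 match and 1 an ETS core and a YY1 match.

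To show members with and without these letters, 120 bases before the start are printed for 6 genes, in capitals where NRF1 (Ndufa11, Ndufs6, Sdha) or ETS core letters (Uqcr11, Ndufb7) stand. They are Ndufa11 (chr17:56717642-56717761, plus strand), Ndufs6 (chr13:73328483-73328602, minus strand), Sdha (chr13:74350241-74350360, minus strand), Uqcr11 (chr10:80406822-80406941, minus strand), Ndufb7 (chr8:83566638-83566757, plus strand) and Ndufa1 (chrX:37191239-37191358, minus strand), each written 5′ to 3′ along the gene.
Ndufa11: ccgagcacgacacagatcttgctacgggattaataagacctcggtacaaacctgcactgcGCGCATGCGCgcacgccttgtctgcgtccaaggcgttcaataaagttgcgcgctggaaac
Ndufs6: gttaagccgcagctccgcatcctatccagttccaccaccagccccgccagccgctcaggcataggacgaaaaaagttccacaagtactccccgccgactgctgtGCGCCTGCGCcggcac
Sdha: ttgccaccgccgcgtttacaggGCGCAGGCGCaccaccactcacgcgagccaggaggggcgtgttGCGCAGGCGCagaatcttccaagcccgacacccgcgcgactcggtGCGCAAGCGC
Uqcr11: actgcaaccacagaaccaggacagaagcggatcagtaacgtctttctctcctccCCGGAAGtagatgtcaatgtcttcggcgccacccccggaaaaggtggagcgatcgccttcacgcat
Ndufb7: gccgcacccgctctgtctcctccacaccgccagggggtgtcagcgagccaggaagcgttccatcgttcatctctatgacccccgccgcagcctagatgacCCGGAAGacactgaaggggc
Ndufa1: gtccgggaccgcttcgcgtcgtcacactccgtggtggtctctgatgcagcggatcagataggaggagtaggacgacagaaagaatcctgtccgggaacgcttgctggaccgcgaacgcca
Sdha, with 3 NRF1 matches, did not pass the test in young mice, and Ndufa1, with none of the letters, had the smallest adjusted p of the nuclear members. Of the 17 members with an NRF1 match 7 fell (41.2%), of the 16 with an ETS core 12 (75%), of the 7 with a YY1 match 5, and of the 29 with no match 17 (58.6%), beside 37 of all 63 (58.7%). The medians were -0.39, -0.41, -0.40 and -0.35.

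The regulators of these genes themselves mostly missed the test in young mice. Pprc1, a coactivator of the PGC-1 family that works with NRF1, was the exception among 13 tested: it ran from 48.0 over 55.6 to 60.8 CPM in young lean and from 72.4 over 82.4 to 96.3 CPM in young obese mice and rose by 0.60 ± 0.11 (SE; adjusted p = 0.0092). Its groups did not overlap, where 0.866% of all tested genes were higher without overlap. It kept its call without young obese 1 and 2, without young lean 26 and with the length offset. Nrf1 itself had 0.17 (adjusted p = 0.260), Gabpa 0.26 (adjusted p = 0.066), Yy1 0.17 (adjusted p = 0.119), Esrra -0.12 (adjusted p = 0.497) and Tfam, which packs and transcribes mitochondrial DNA, -0.08 (adjusted p = 0.717). Ppargc1b was close to the detection limit, with means of 0.171 and 0.268 CPM (0.64, adjusted p = 0.330).

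Lists around the pathway gave smaller counts in the same comparison, where 5.35% of all tested genes fell. Of 47 assembly factors 10 fell, among them Uqcc3 of complex III (-0.55, adjusted p = 0.0132) and Cmc1 of complex IV. Of 76 mitochondrial ribosomal protein genes 12 fell, of 18 genes of electron carriers and coenzyme Q 3 (Coq8a by 0.93), of 27 of import and carriers 3, among them Chchd2 and Tomm7, of 29 of mitochondrial DNA handling 2, and of 9 tissue isoforms outside the rule 2 (Cox6b2 and Higd2a). None of these lists held a gene that rose. Of 20 citric acid cycle and pyruvate dehydrogenase genes Mpc2, a pyruvate carrier subunit, fell (-0.55) and Dlat, a pyruvate dehydrogenase subunit, rose (0.35, adjusted p = 0.0202) from 41.9 to 57.1 CPM in lean to 60.8 to 73.8 CPM in obese mice, without overlap. With the length offset the counts that fell became 0 of 47 assembly factors and 2 of 76 mitochondrial ribosomal genes, and without young lean mouse 26 they were 2 and 0.

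In aged mice no member was called for obesity. Of 84 tested members 0 passed for aged obese against aged lean, where 0.208% of all tested genes did. DESeq2 and limma-voom also called 0. An unadjusted p under 0.05 was found for 1 nuclear member, beside 1834 of all 14438 tested genes. The nuclear median log2 fold change was -0.08, with 70 of 76 negative, and that of the 7 mitochondrial genes was -0.12. In the decile of other genes with the shortest transcripts the median was -0.06, with 915 of 1422 negative. The difference between the obesity effects at the 2 ages was tested as an interaction. No member passed by edgeR, DESeq2 or limma-voom (0.00693% of all genes did by edgeR), the smallest adjusted p was 0.602, and 18 members had an unadjusted p under 0.05. The median interaction was 0.26 on the log2 scale, positive for 73 of 76 nuclear genes, so a weaker fall in aged than in young mice was not shown at the level of single genes. This term shares the young libraries with the comparison above.

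Age in lean mice gave no call either. No gene of all tested passed (0%), DESeq2 called 8 genes and no member, and limma-voom called no member. An unadjusted p under 0.05 was found for 6 members, beside 774 of all 14438 tested genes. The nuclear median was -0.17, with 71 of 76 negative, and the mitochondrial median was 0.28. In the decile of other genes with the shortest transcripts the median was -0.11, with 995 of 1422 negative. In obese mice, where age goes with time on the diet, 3.05% of all genes and 0 members passed for aged against young by edgeR. DESeq2 called 0 members and limma-voom 1 (Ndufa6, higher). By edgeR 1 member had an unadjusted p under 0.05, beside 2732 of all 14438 tested genes. Here the nuclear median was 0.10, with 64 of 76 positive, and the mitochondrial median 0.24. Without aged obese mice 10 and 12, 4 members were higher in aged obese mice: Ndufa1, Ndufa6, Ndufb5 and Cox8a. These mice had 32.8 and 32.5 CPM of Ndufa6 against 52.5 to 75.6 CPM in the other 4, and 33.7 and 40.1 CPM of Ndufv3 against 67.7 to 101 CPM.

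Aged obese against young lean, which changes both factors, called 2 nuclear members as lower and none as higher, where 10.3% of all genes passed and 4.64% were lower. Uqcrq, a small subunit of complex III, ran from 76.5 over 147 to 215 CPM in young lean and from 88.7 over 94.5 to 129 CPM in aged obese mice and fell by 0.56 (adjusted p = 0.0453). Atp5s ran from 5.32 over 6.74 to 10.7 and from 4.45 over 4.92 to 6.22 CPM and fell by 0.48 (adjusted p = 0.0246). Both overlapped. The median was -0.25 for the nuclear members, with 69 of 76 negative, and 0.14 for the mitochondrial genes. An unadjusted p under 0.05 was found for 39 nuclear members, beside 4046 of all 14438 tested genes. The count of 2 was 0 without aged obese 10, 15 or 17 or young lean 26, 1 without aged obese 12 or young lean 7, 23 or 27, 5 without young lean 1, 7 without aged obese 16 and 17 without young lean YL512. The length offset left 1.

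In that comparison 3 of 13 regulators rose: Pprc1 by 0.72 (adjusted p = 0.0029), Ppargc1b by 1.91 and Gabpb1, a partner of GABPA, by 0.41. Of 29 genes of mitochondrial DNA handling Polg, the polymerase of mitochondrial DNA, rose by 0.48, and 4 fell, among them Tfb1m, which modifies the mitochondrial ribosomal RNA (-0.66). Of 47 assembly factors 1 rose and 3 fell, among them Uqcc3 and Tmem126b. Over all tested genes 10.3% passed and 4.64% were lower. The young lean libraries are shared with the comparison of young mice, so the 2 are not independent. Cytosolic and mitochondrial ribosomal protein genes held no call here.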

How the data were processed

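The authors deposited 1 table of raw counts per Ensembl mouse gene, whole numbers for 30 libraries. The submitters' processing notes name as tools STAR, HTSeq 0.7.0 and DESeq2 1.12.4. For genome build, annotation release, strand setting and reads that fit several places the entry is the same: not given in the sources used here. Genes that overlap or share sequence are therefore uncertain. Lines naming no gene (reads in no gene 3.94% to 8.75% and ambiguous reads 2.69% to 3.41% per library) were left out. Symbols were found for 36639 of 38561 identifiers, and 4 rows that match the symbols but are not protein-coding were left out.

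Groups came from sample titles. Counts of all 30 libraries were fitted in edgeR 4.0.16 (R 4.3.3) with 1 term per group: filterByExpr by group (14438 genes), TMM factors, robust quasi-likelihood fit and F-test, Benjamini-Hochberg adjustment over all tested genes, threshold 0.05. CPM use TMM-scaled library sizes, and CPM per kilobase the GENCODE M21 transcript length. Ranges give lowest, median and highest library. The fit was tested on simulated data. Alternatives were DESeq2 1.42.0, limma 3.58.1 voom with quality weights, RLE factors, no filter, only the groups compared, mitochondrial counts out of library totals, an offset for GC content and length, mouse number as a block, and libraries left out. The members and lists, and the rule for named genes (per complex the 3 smallest and the largest p in young mice, level extremes, called members elsewhere, the leading genes of each list and all isoforms and regulators), were chosen with earlier results of these data known. Labels named no batch.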

Additional observations from a re-analysis of the deposited data

Results flagged for a closer look

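Among 172 groups of libraries examined (the 4 groups for each gene or sum), 8 held a library that stood apart from the rest of its group by Dixon's criterion at the 95% level, where chance gives about 1 in 20. Of these, 7 were young lean mouse 26. Its summed nuclear complex I level was 3263 CPM, with the next young lean mouse at 2459 CPM. Its Ndufa2 was 217 CPM (next 130), Ndufa13 187 CPM (next 110), Cox7c 162 CPM (next 108), Atp5k 112 CPM (next 75.7), Atp5mpl 85.2 CPM (next 55.7) and Ndufa1 62.7 CPM (next 46.1). The same library had the lowest values of its group for Uqcrc2, at 79.2 CPM, and for Atp5b, at 696 CPM. The eighth was Atp5s in aged obese mouse 16, at 6.22 CPM, with the next aged obese mouse at 4.998 CPM.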

How the results depend on the processing

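For obesity in young mice the 43 members called became 49 with DESeq2 (the 43 and 6 more), 39 with RLE factors, 40 with mitochondrial counts out of the totals and 56 by limma-voom (41 shared), but 24 with the compared groups alone, 7 without the filter, 1 with the GC and length offset and 0 without young obese 1 and 2. Leaving out single mice gave 1 to 56. For aged obese against young lean the 2 calls became 5 with DESeq2, 1 with RLE factors, with mitochondrial counts left out or with the offset, and 0 without the filter, with the compared groups alone, by limma-voom or without aged obese 10 and 12 (0 to 17 without single mice). For age in obese mice the 0 calls became 1 by limma-voom and 4 without aged obese 10 and 12. The remaining comparisons had 0 calls under all these settings. Correlations of same-numbered deviations lay between -0.517 and 0.39. They were not set beside those of other pairs, so they do not settle whether mouse numbers link animals. A fit with a replicate block on the 16 libraries whose number recurs called 0 members for both comparisons with calls. The fit of these libraries without the block, added after seeing the data, also called 0. Their only young lean mice were 1 and 23, a group too small for 0 calls to say much. Under the replicate block Dlst turned to -0.20 and Tmem126b to 0.10 for aged obese against young lean. With the offset Cox6b1 (0.031) and Higd2a (0.021) turned positive in young mice, as did the called members Cox8a, Ndufc2 and Ndufs3, which are outside the rule for named genes. On plain CPM the aged obese nuclear mean was 7012 in place of 7416 CPM and fell below the young obese mean of 7151 CPM, as it did when scaled to nuclear counts alone (7179 against 7312). Of the values of the genes named by that rule under these settings, 11969 kept their side of the threshold, 416 lost the call and 68 gained it. Another 4 turned sign in a gene called in either fit. A gene called in neither fit was counted as kept even where its sign turned. Counts near 0 for 5 mitochondrial genes leave their levels unmeasured.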
